A study of Mus musculus with 4 samples.

Results

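Ubiquitin ligase and deubiquitinase genes were examined among the chromatin regions that differed between long-term hematopoietic stem cells (LT-HSCs) with and without Sin3B. The members were all peaks of the deposited ATAC-Seq table whose gene name opened with Rnf, Trim or Usp and a digit, with Ube2, or with Fbxl, Fbxo or Fbxw and a digit. This rule, which used no measured value, took 67 of the 5332 peaks, assigned to 60 of the 4376 genes named in the table. The 7 families held 18 Rnf, 9 Trim, 12 Usp, 10 Ube2, 4 Fbxl, 10 Fbxo and 4 Fbxw peaks. ATAC-Seq marks open chromatin, since the Tn5 transposase inserts its adapters more readily into DNA that is not packed in nucleosomes.

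There were 4 libraries, 2 of control mice (labelled WT, here Sin3B+/+) and 2 of mice in which floxed Sin3B alleles had been deleted by Vav1-iCre (labelled KO, here Sin3B-/-), all on the C57BL/6 background and untreated. Each library was a pool of LT-HSCs from 2 mice, so 8 mice were used in all, and the cells were sorted as Lineage- Sca-1+ cKit+ Flk2- CD48- CD150+. Vav1-iCre is active across the hematopoietic system, so the deletion was not limited to LT-HSCs. The study writes the controls both as Sin3B+/+ and as Sin3B F/F (floxed alleles without a stated Cre), so their alleles are not settled here, and the age of these mice was not found in the sources used here.

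Ubiquitin is attached to proteins by an E1 activating enzyme, an E2 conjugating enzyme and an E3 ligase, and it is removed by deubiquitinases. The Ube2 genes encode E2 enzymes, most Rnf and Trim genes encode RING ligases that bring an E2 to a substrate, and the Fbxl, Fbxo and Fbxw genes encode F-box proteins, which choose the substrates of SCF cullin-RING ligases. Usp genes encode the largest group of deubiquitinases. In hematopoietic stem cells the system is known for its control of cell cycle regulators, of DNA repair and of cytokine receptors.

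The sequences below are shown because the results turn on these peaks: the promoter of a cell cycle E2 gene (Ube2s), the highest member level (Rnf5), a pair of related Trim genes, the member with less signal without Sin3B (Fbxl7), and 3 peaks of the deubiquitinase genes Usp19 and Usp5. Each is a stretch of at most 300 bases from inside its peak, read 5′ to 3′ on the plus strand of GRCm38, with annotated untranslated exons left out. A stretch can therefore lie off the central 300 bp in which motifs were counted. The ETS match counted for the Usp19 promoter peak and the TTTGAA counted for Trim12c lie outside the stretches shown. Capitals mark matches to the motif letters that are spelled out with the motif results.
Ube2s promoter peak, chr7:4812591-4812890: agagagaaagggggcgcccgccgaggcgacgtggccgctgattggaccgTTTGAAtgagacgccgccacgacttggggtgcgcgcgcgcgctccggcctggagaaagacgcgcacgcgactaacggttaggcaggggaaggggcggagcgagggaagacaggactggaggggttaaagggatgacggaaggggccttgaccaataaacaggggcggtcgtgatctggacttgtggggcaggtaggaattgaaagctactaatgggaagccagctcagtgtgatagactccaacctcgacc
Rnf5 promoter peak, chr17:34603795-34604094: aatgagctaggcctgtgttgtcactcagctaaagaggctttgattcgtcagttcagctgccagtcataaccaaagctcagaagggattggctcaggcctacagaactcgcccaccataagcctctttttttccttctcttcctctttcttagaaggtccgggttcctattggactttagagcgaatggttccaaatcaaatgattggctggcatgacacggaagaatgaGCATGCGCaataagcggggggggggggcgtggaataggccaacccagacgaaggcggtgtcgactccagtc
Trim12a intron peak, chr7:104315001-104315300: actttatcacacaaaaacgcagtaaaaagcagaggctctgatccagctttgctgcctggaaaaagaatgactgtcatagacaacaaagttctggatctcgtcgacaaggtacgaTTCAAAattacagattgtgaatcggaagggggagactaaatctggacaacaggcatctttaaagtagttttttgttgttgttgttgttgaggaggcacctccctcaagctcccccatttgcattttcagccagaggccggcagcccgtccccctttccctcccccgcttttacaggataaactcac
Trim12c promoter peak, chr7:104353363-104353662: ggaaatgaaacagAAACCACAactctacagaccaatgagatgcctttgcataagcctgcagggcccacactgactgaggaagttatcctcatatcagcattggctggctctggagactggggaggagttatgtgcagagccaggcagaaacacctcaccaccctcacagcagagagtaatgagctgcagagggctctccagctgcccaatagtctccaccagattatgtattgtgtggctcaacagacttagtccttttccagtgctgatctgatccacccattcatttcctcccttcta
Fbxl7 intron peak, chr15:26869150-26869449: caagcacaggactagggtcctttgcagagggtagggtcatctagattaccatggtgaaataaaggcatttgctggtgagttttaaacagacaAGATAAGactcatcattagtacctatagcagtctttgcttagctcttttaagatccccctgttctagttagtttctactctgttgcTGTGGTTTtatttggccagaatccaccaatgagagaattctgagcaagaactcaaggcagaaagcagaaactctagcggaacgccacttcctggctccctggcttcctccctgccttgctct
Usp19 promoter peak, chr9:108490896-108491195: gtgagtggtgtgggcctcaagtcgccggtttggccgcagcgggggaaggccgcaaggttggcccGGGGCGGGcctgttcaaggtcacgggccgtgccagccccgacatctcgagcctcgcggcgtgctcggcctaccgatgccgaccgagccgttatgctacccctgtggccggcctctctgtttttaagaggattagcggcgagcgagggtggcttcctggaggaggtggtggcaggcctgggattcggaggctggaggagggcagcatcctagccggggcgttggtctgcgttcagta
Usp19 intron peak, chr9:108492062-108492361: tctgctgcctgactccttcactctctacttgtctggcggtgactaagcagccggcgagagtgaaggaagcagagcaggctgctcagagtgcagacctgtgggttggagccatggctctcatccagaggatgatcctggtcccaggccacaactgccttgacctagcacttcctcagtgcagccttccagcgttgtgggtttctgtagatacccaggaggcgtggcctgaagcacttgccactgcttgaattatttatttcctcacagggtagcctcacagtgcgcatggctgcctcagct
Usp5 intron peak, chr6:124828217-124828448: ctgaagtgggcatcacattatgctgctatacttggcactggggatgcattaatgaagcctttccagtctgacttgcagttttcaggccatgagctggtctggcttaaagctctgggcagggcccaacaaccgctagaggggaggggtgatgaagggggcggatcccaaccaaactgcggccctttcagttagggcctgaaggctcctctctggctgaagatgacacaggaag

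The table held only peaks that the authors had called between the genotypes at an FDR under 0.05, so every one of its 5332 peaks, and with them all 67 members, had levels that did not overlap between Sin3B+/+ and Sin3B-/-. Levels are the deposited normalized reads per peak, that is reads multiplied by 1 factor per library, with 1 read worth 0.228 and 0.343 level units in the control pair, against 0.625 and 1 in the Sin3B-/- pair. Before that scaling the member peaks held a median of 1253 and 669 reads in Sin3B+/+ and of 643 and 451 in Sin3B-/-, and unscaled mean reads were higher in Sin3B-/- at 3 members, in Rnf125, Trim12a and Usp19. The lowest member counts were 103, 51, 25 and 13 reads, so counting noise is largest in Sin3B-/- replicate 2. Total depth is unknown, because the table covers part of each library. Of the LT-HSC markers checked, 5 of 12 genes (Fgd5, Hoxb5, Mllt3, Procr and Slamf1) had peaks in the table, all 6 of them higher in Sin3B-/-, against 0 of 2 markers of progenitors that the sort excludes and 0 of 11 of mature lineages. For scale, 15.7% of protein-coding genes had a peak and 95.7% of all peaks were higher, so these counts say little about the purity of the sort. A gene without a peak may still be accessible and equal. Sin3b itself had 0 peaks, so the deletion could not be checked.

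Nearly all members were more accessible without Sin3B on the deposited scale, and so was nearly the whole table. In limma on log2(level + 1), with Benjamini-Hochberg adjustment over all 5332 peaks, 66 of 67 member peaks were called higher in Sin3B-/-, where 95.7% of the table was, and 1 was called lower, where 4.29% was. The members' median log2 difference (Sin3B-/- minus Sin3B+/+) was 0.79, with an interquartile range from 0.64 to 0.96, beside 0.76 and a range from 0.63 to 0.97 over the table. Differences of at least 1 upward or downward were found in 17 members, or 25.4%, against 25.6% of the table. The shift was common to the table, and a common difference in accessibility and a difference in library scale cannot be told apart in these values. The differences of the members are therefore also given relative to the table, with every library centred on its own median log2 level. Centring lowers the table's median from 0.76 to 0.01. Peaks of genes outside the families are given as deposited. On that scale 7 members were called higher, 10.4% beside 7.01% of the table, and 1 lower, 1.49% beside 4.29%. The members' median was then 0.04 and 35 of 67 lay above 0. On the deposited scale limma gave every peak the same standard error, 0.22 log2 units, because the spread between replicates was pooled over the table, so its p there follows the size of the difference alone. Since the authors chose the table for differences in these same libraries, the calls describe it and are no new test.

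**Figure D1:**
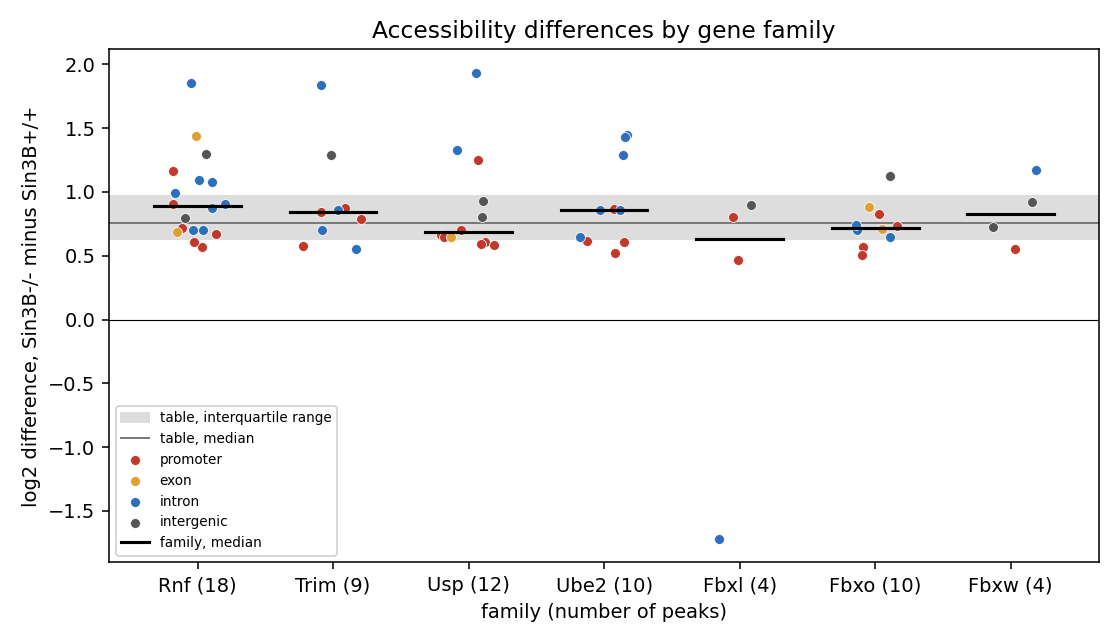
Log2 difference in normalized read level (vertical axis, Sin3B-/- minus Sin3B+/+) of each of the 67 member peaks by gene family (horizontal axis), coloured by position, with the family median as a black bar and the table's median (0.76) and interquartile range (0.63 to 0.97) in grey. Family medians lie between 0.64 and 0.89, and Fbxl7 at -1.72 is the member below 0.

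By family, the median log2 difference was 0.89 for Rnf, 0.85 for Trim, 0.68 for Usp, 0.86 for Ube2, 0.64 for Fbxl, 0.72 for Fbxo and 0.83 for Fbxw. Relative to the table these medians were 0.14, 0.09, -0.07, 0.11, -0.12, -0.03 and 0.07, and no test was made between families. The families also differed in how many of their annotated protein-coding genes had a peak: 25% for Fbxo and 24.3% for Ube2 at the upper end, and 11.8% for Trim at the lower. Taken as one set, 60 of 323 annotated genes of the families (18.6%) had a peak, beside 3446 of 21924 protein-coding genes (15.7%).

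Members also differed by position. The centres of 28 peaks (41.8%, 95% Wilson interval from 30.7% to 53.7%) lay in a promoter, taken as 1000 bp upstream to 100 bp downstream of an annotated transcript start, beside 33.3% of the table. A further 25 peaks were in introns, 5 in exons and 9 between genes, the last being 13.4% of the members and 21.2% of the table. Promoter members had a median level of 598 and a median log2 difference of 0.65, while intron members had 175 and 0.87. The 39 peaks outside promoters had a median difference of 0.88 together, and the table showed the same order, with 0.67 in promoters and 0.83 outside.

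Level moved with position. Members with a mean level under 100 had a median log2 difference of 1.17 (16 peaks), those from 100 to 500 had 0.74 (27 peaks), and those above 500 had 0.67 (24 peaks), and the corresponding values over the table were 1.07, 0.76 and 0.65. Since the table was chosen by FDR, level and difference are not independent in it. Within the middle range, 8 promoter members had a median of 0.64 and 19 other members 0.86, where the table had 0.70 and 0.78. Above 500 the medians were 0.61 for 17 promoter members and 0.70 for 7 others, beside 0.64 and 0.67. None of the 7 members called higher relative to the table lay in a promoter, where 38 of 374 such peaks (10.2%) in the whole table did.

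**Figure D2:**
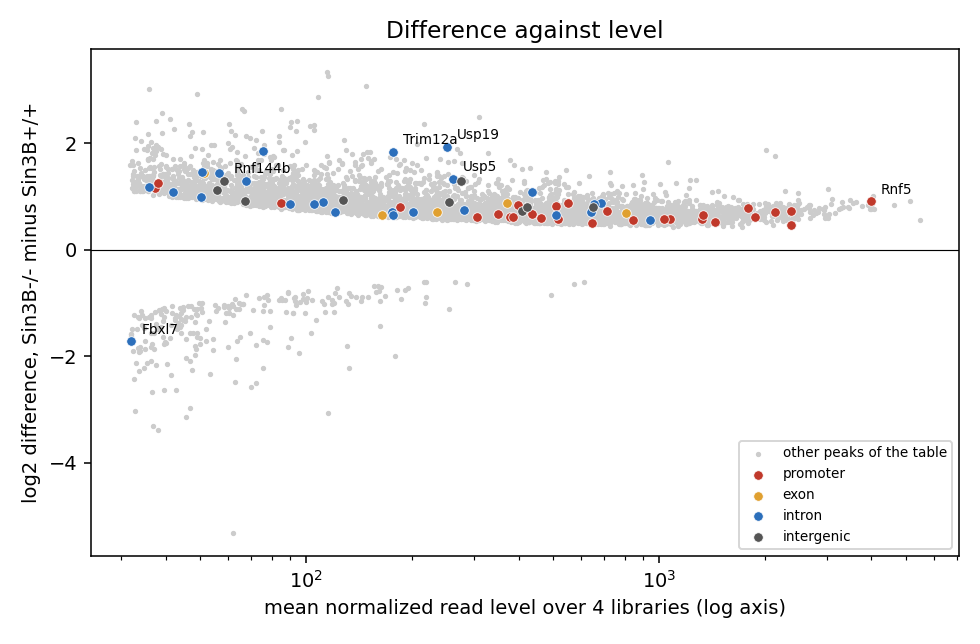
Log2 difference (vertical axis, Sin3B-/- minus Sin3B+/+) against the mean normalized read level over the 4 libraries (horizontal axis, log scale) for the 67 members, coloured by position, over all other peaks of the table in grey. Rnf5 has the highest member level, the Usp19 intron peak the largest difference (1.93), and Fbxl7 is the member below 0.

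Assignment of a peak to a gene was by name in the table. For 54 of the 67 members (80.6%, beside 72.4% of the table) the start nearest to the peak's centre was that of the named gene, and 25 of the 28 promoter members lay in the promoter of the named gene. The peak named for Rnf121 lay in the promoter of Il18bp, that named for Fbxo8 had a start of Cep44 there, and that named for Ube2d3 a start of 4930539J05Rik. For Fbxo8 and Ube2d3 the named gene's own start was still the nearest. Their centres lay 107 bp and 153 bp downstream of it, outside the promoter window of 100 bp. Promoters shared with a neighbour were found for Fbxl12 (with Ubl5, a ubiquitin-like protein gene), Fbxo24 (with Gm20605 and Lrch4) and Fbxo38 (with Spink10), so 10.7% of promoter members opened on more than 1 gene, against 22.2% of promoter peaks in the table. At the other end, 15 members were centred over 10000 bp from their own gene's nearest start, the farthest being the Usp25 peak at 159787 bp. Neighbouring members less than 100000 bp apart were Trim41 and Trim7 (20507 bp between the peaks), Usp39 and Rnf181 (16204 bp), and Trim12a and Trim12c (36999 bp).

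Among the E2 enzyme genes, the Ube2r2, Ube2z and Ube2f intron peaks had the largest differences. The Ube2r2 peak (chr4:41179750-41180683), of a relative of the cell cycle enzyme Cdc34, had levels of 32.6 and 21.3 in Sin3B+/+, against 87.5 and 62 in Sin3B-/-. Both Sin3B-/- libraries were above both controls, by 1.45 log2 units as deposited (limma adjusted p = 2.84e-10), and by 0.70 relative to the table, where it was not called (limma adjusted p = 0.0821). This peak lay in an intron 44473 bp from the gene's start, and the nearest start was that of Gm24650.

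Ube2z encodes an E2 that works with the E1 enzyme Uba6. Its intron peak (chr11:96064517-96064903, 678 bp downstream of the start) had levels of 29.4 and 30.5 in Sin3B+/+ and of 71.2 and 96 in Sin3B-/-. The controls were close to each other and far below both Sin3B-/- libraries, with a difference of 1.43 as deposited (limma adjusted p = 4.27e-10) and of 0.68 relative to the table (limma adjusted p = 0.0290). The Uba6 promoter peak had levels of 712 and 680 in Sin3B+/+ and of 941 and 984 in Sin3B-/-. Its difference of 0.47 as deposited was below the table's median of 0.76.

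Ube2f, the E2 for the ubiquitin-like modifier NEDD8, had 2 peaks. The intron peak (chr1:91252023-91252257), centred 1574 bp downstream of the start, had levels of 45.0 and 32.9 in Sin3B+/+ and of 88.1 and 104 in Sin3B-/-. It rose by 1.29 log2 units (limma adjusted p = 1.92e-08), and by 0.54 relative to the table (limma adjusted p = 0.0311). The promoter peak of the same gene had levels of 351 and 264 against 429 and 502. It was higher in both Sin3B-/- libraries by 0.61 as deposited (limma adjusted p = 0.00562) and lay at -0.14 relative to the table, and it was not called without Sin3B-/- replicate 2 (0.50, limma adjusted p = 0.108) or without Sin3B+/+ replicate 2 (0.40, limma adjusted p = 0.0755).

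Ube2s, which extends ubiquitin chains for the anaphase-promoting complex, carried TTTGAA in the promoter sequence printed above. Its peak (chr7:4812226-4813185) had levels of 1321 and 1038 in Sin3B+/+ and of 1465 and 1925 in Sin3B-/-. The lower Sin3B-/- library was only slightly above the higher control, and the difference of 0.52 as deposited (limma adjusted p = 0.0162) became -0.23 relative to the table. Without Sin3B-/- replicate 2 it was 0.32 (limma adjusted p = 0.281) and without Sin3B+/+ replicate 2 it was 0.35 (limma adjusted p = 0.122), neither of them called.

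The Ube2o promoter, of a large enzyme with both E2 and E3 activity, stood at 68.9 and 51.1 in Sin3B+/+ and at 97.5 and 122 in Sin3B-/-. It had the lowest level of the 4 Ube2 promoter peaks in the table. It rose by 0.87 as deposited (limma adjusted p = 0.000147) and lay at 0.11 relative to the table. The other Ube2 peaks, in Ube2d3, Ube2g2, Ube2l6 and Ube2v2, had differences from 0.62 to 0.86 as deposited. Relative to the table these were from -0.13 (Ube2d3) to 0.11 (Ube2l6). Of these, Ube2l6 encodes the E2 for the interferon-induced modifier ISG15, Ube2g2 an E2 of the degradation of misfolded proteins of the endoplasmic reticulum, and Ube2v2 an E2 variant without catalytic activity. The Ube2v2 centre lay 110 bp downstream of a start, just outside the promoter window, in sequence of 76.3% GC.

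Of the RING ligases, Rnf125 carried 3 peaks and the largest Rnf difference. Rnf125 is known for marking RIG-I-like receptors of viral RNA for degradation. The small intron peak, 278 bp wide and centred 2878 bp upstream of the nearest of the gene's own starts, had levels of 42.9 and 23.0 in Sin3B+/+ and of 99.3 and 136 in Sin3B-/-. It rose by 1.85 log2 units (limma adjusted p = 3.77e-16) and by 1.10 relative to the table (limma adjusted p = 0.0126), with the genotypes well apart. The wider intron peak, 655 bp downstream of that start, went from 315 and 246 to 574 and 615, a difference of 1.09 as deposited and 0.34 relative to the table. The peak between genes, 5895 bp upstream of another, earlier start of the gene, went from 305 and 312 to 520 and 550, which was 0.79 and 0.04.

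Rnf213, a very large ligase with an ATPase domain, had a peak over a coding exon (chr11:119435965-119436850). The levels were 26.2 and 28.1 in the controls, against 74.98 and 76 in Sin3B-/-. Replicates were nearly equal within each genotype, and the difference was 1.44 as deposited (limma adjusted p = 3.46e-10) and 0.69 relative to the table (limma adjusted p = 0.0186). Rnf144b, a ligase of the RING-between-RING kind, had a peak between genes, centred 65705 bp from its start, at 44.0 and 24.7 against 81.9 and 83. It rose by 1.29 as deposited (limma adjusted p = 1.84e-08), and at 0.54 relative to the table it was not called (limma adjusted p = 0.121).

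Rnf220, a RING ligase gene of the list described after the families, had an intron peak. Centred 52200 bp from the nearest of the gene's own starts, it had levels of 515 and 451 in Sin3B+/+ and of 797 and 981 in Sin3B-/-. The difference was 0.87 as deposited (limma adjusted p = 0.000130) and 0.12 relative to the table. Rnf5, a ligase of the endoplasmic reticulum membrane, was singled out after its values were seen, as the highest member. Its promoter peak (chr17:34603388-34604503) stood at 3066 and 2485 in Sin3B+/+ and at 4872 and 5509 in Sin3B-/-, with 13436, 7250, 7797 and 5509 reads behind these levels. Both Sin3B-/- libraries were well above the controls by the deposited levels, at 0.91 (limma adjusted p = 7.23e-05), while relative to the table the difference was 0.16. The remaining Rnf peaks ranged from 0.57 (Rnf181) to 1.16 (the peak named for Rnf121) as deposited. For the same peaks the range relative to the table was from -0.18 to 0.41. Among them were those of Rnf43, which removes Wnt receptors from the cell surface, and of Rnf123, a ligase for the cell cycle inhibitor p27. Relative to the table these lay at 0.15 and 0.24, and neither was called (limma adjusted p = 0.703 and 0.313). Their nearest starts were those of other genes, Supt4a and Amigo3.

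The Trim genes also encode RING ligases, many of them part of the antiviral response. Trim12a and Trim12c, mouse relatives of the retroviral restriction factor gene Trim5, both had a peak at the start. The Trim12a peak (chr7:104314724-104315740) had levels of 107 and 53.5 in Sin3B+/+ and of 251 and 296 in Sin3B-/-. It rose by 1.83 log2 units (limma adjusted p = 7.76e-16) and by 1.08 relative to the table (limma adjusted p = 0.0162), although the control replicates were themselves far apart. The Trim12c promoter peak stood at 415 and 362 against 667 and 760, a difference of 0.88 as deposited (limma adjusted p = 0.000128) and of 0.12 relative to the table. The peaks aligned over 895 columns with 802 identical bases (89.6%), so reads could be shared between these genes and both values are uncertain.

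Trim25, which acts on RIG-I and as a ligase for ISG15, had a peak between genes centred 24995 bp from its start. The levels were 202 and 123 in the controls, against 371 and 402 in Sin3B-/-. The genotypes were well apart. The difference was 1.29 (limma adjusted p = 2.13e-08), and 0.54 relative to the table, which was not called (limma adjusted p = 0.0869). Trim8 had intron peaks 2169 bp and 9569 bp from its start. The nearer went from 792 and 731 to 1065 and 1178 (0.56 as deposited, -0.20 relative to the table, and 0.48 with a limma adjusted p of 0.115 when Sin3B-/- replicate 2 was left out). The farther went from 500 and 429 to 844 and 839 (0.86 and 0.11). The other Trim peaks, in Trim39, Trim41, Trim45 and Trim7, had differences from 0.58 to 0.85 as deposited. Relative to the table these were from -0.18 (Trim41) to 0.09 (Trim39).

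**Figure D3:**
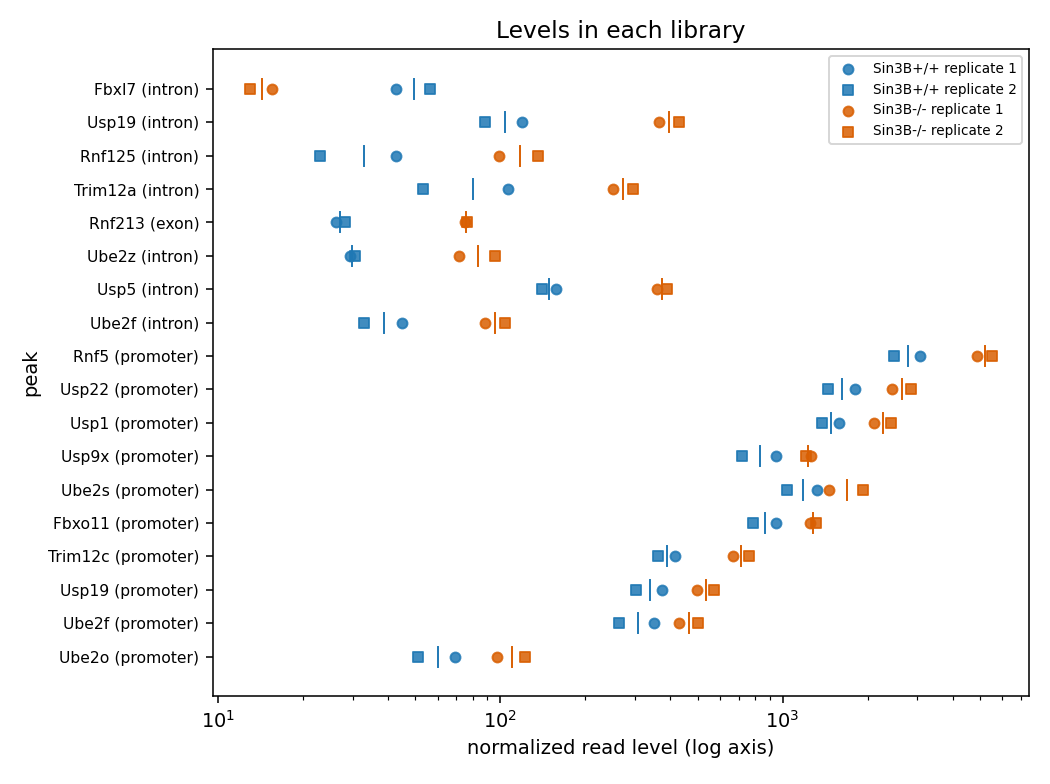
Normalized read level in each library (horizontal axis, log scale) for 18 member peaks named on the vertical axis, with blue for Sin3B+/+, orange for Sin3B-/-, circles for replicate 1, squares for replicate 2 and vertical ticks for the genotype means. The upper 8 rows are the members called relative to the table, where Fbxl7 alone has its Sin3B-/- libraries to the left, and Rnf5 has the highest levels.

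The F-box genes held the one member with less signal without Sin3B. Fbxl7, whose product is known to direct the degradation of Aurora A and survivin, had an intron peak (chr15:26868999-26869601) 26280 bp from its start. Its levels were 42.9 and 56.6 in the controls, against 15.6 and 13 in Sin3B-/-, from 188, 165, 25 and 13 reads. Both Sin3B-/- libraries were below both controls, and the difference was -1.72 log2 units as deposited (limma adjusted p = 4.88e-14) and -2.47 relative to the table (limma adjusted p = 0.000187). With a mean level of 32.02 it was the weakest member, and a filter at a mean level of 50 removed it. The printed sequence of this peak holds AGATAAG and TGTGGTTT, the letters searched for GATA and RUNX factors, which hematopoietic stem cells use.

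The other Fbxl peaks rose on the deposited scale by 0.90 (Fbxl18), 0.81 (Fbxl12) and 0.46 (Fbxl19). Fbxl18 stood at 220 and 140 in Sin3B+/+ and at 314 and 343 in Sin3B-/-, and Fbxl12 at 161 and 110 against 237 and 229. The genotypes did not overlap on the deposited scale, which held for every peak of the table. Relative to the table the differences were 0.15 and 0.05, and neither was called (limma adjusted p = 0.628 and 0.862). Fbxl19, a protein with a CXXC domain that binds unmethylated CpG, had a promoter level of 2058 and 1900 against 2505 and 2974. At 0.46 (limma adjusted p = 0.0307) it was the smallest difference of any member as deposited, and it lay at -0.29 relative to the table. It was not called without Sin3B+/+ replicate 2 (0.41, limma adjusted p = 0.0723), without either Sin3B-/- replicate (0.59 and 0.34, limma adjusted p = 0.0533 and 0.254), or with the replicate number as a block (limma adjusted p = 0.0604).

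Among the Fbxo genes, Fbxo2, which recognises N-glycans on misfolded glycoproteins, had the largest difference. Its peak between genes stood at 44.5 and 26.7 in Sin3B+/+ and at 78.1 and 75 in Sin3B-/-, and it rose by 1.13 (limma adjusted p = 9.73e-07) and lay at 0.37 relative to the table. Fbxo4, named for the degradation of cyclin D1, had an exon peak over untranslated sequence 120 bp from its start, at 286 and 238 against 489 and 476. That peak rose by 0.88 (limma adjusted p = 0.000111) and lay at 0.13 relative to the table. The Fbxo8 peak stood at 389 and 350 against 654 and 656, a difference of 0.83 with 0.07 relative to the table.

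Fbxo11, a substrate receptor for the transcription factor BCL6, had a promoter level of 944 and 787 in Sin3B+/+ and of 1250 and 1312 in Sin3B-/-. Both Sin3B-/- libraries were higher, by 0.57 as deposited (limma adjusted p = 0.00888), but the value was -0.18 relative to the table. It was not called without Sin3B+/+ replicate 2 (0.44, limma adjusted p = 0.0551) or Sin3B-/- replicate 2 (0.53, limma adjusted p = 0.0882). Fbxo9 had 2 peaks inside the gene. The one at 7484 bp from the start went from 436 and 360 to 555 and 691 (0.64, and -0.11 relative to the table), and the one at 22639 bp from 199 and 158 to 262 and 324 (0.71 and -0.04). Neither was called without Sin3B-/- replicate 2, at 0.49 and 0.56 (limma adjusted p = 0.114 and 0.0779).

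The Fbxw peaks were mostly far from the start of the named gene. For Fbxw5 and Fbxw2 the nearest start was that of another gene, C8g at 5430 bp and Rabepk at 2389 bp. Fbxw4 had an intron peak at 25.6 and 17.5 in Sin3B+/+ and at 38.7 and 62 in Sin3B-/-, with a difference of 1.18 (limma adjusted p = 3.25e-07) and of 0.42 relative to the table. The Fbxw5 peak between genes had 49.3 and 42.9 against 94.4 and 82 (0.92 and 0.17), and the Fbxw2 peak 386 and 240 against 465 and 547 (0.73 and -0.02). In Fbxw2 the control replicates were far apart, and the call was lost without either second replicate (0.39 without that of Sin3B+/+ and 0.61 without that of Sin3B-/-, limma adjusted p = 0.0864 and 0.0593). Fbxw11, the beta-TrCP2 receptor of many phosphorylated substrates, had a promoter peak with 0.55 as deposited and -0.20 relative to the table.

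Of the deubiquitinase genes, Usp19 gave the largest difference of all members as deposited. Relative to the table, that of Fbxl7 was larger in size, at -2.47. Usp19 encodes a deubiquitinase that is in part anchored in the endoplasmic reticulum membrane. The intron peak (chr9:108491983-108492441), centred 1356 bp downstream of the start, had levels of 119 and 88.4 in Sin3B+/+ and of 364 and 430 in Sin3B-/-. The Sin3B-/- mean was 3.82 times the control mean, the log2 difference was 1.93 (limma adjusted p = 1.85e-17) and it was 1.18 relative to the table (limma adjusted p = 0.000510). The promoter peak of the same gene, centred 16 bp from the start, had 374 and 303 against 499 and 570. It rose by 0.66 as deposited (limma adjusted p = 0.00289), lay at -0.09 relative to the table, and was not called without Sin3B-/- replicate 2 (0.57, limma adjusted p = 0.0748).

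Usp5, which takes apart free ubiquitin chains, had an intron peak of 232 bp (chr6:124828217-124828448) centred 1103 bp downstream of its start. The levels were 157 and 141 in the controls, against 359 and 390 in Sin3B-/-. Replicates were close and the genotypes far apart, with a difference of 1.33 (limma adjusted p = 8.30e-09) and of 0.57 relative to the table (limma adjusted p = 0.0156). Usp39 encodes a splicing factor that has the fold of a deubiquitinase but lacks its activity. Its promoter peak, 673 bp upstream of the start, stood at 27.6 and 17.5 against 55.6 and 52, and rose by 1.25 as deposited (limma adjusted p = 5.28e-08) but was not called at 0.50 relative to the table (limma adjusted p = 0.0969). The second Usp39 peak, over the untranslated end of the gene, stood at 135 and 120 against 192 and 208 (0.64, and -0.11 relative to the table), and it was not called without Sin3B-/- replicate 2 (0.59, limma adjusted p = 0.0663).

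Of the listed deubiquitinase genes, Usp22, Usp1 and Usp9x had promoter peaks in the table. Usp22, which removes ubiquitin from histone H2B in the SAGA coactivator, had levels of 1797 and 1452 in Sin3B+/+ and of 2437 and 2849 in Sin3B-/-. Usp1, which acts on FANCD2 and PCNA, had 1589 and 1381 against 2108 and 2412. Usp9x, the X-linked deubiquitinase of many signalling proteins, had 947 and 717 against 1262 and 1208. Each was higher in both Sin3B-/- libraries on the deposited scale, by 0.71, 0.61 and 0.58 (limma adjusted p = 0.00165, 0.00580 and 0.00758), and each lay below 0 relative to the table, at -0.05, -0.15 and -0.17. Without Sin3B-/- replicate 2 the differences were 0.59, 0.51 and 0.61 (limma adjusted p = 0.0650, 0.101 and 0.0582), so that none was called. The Usp9x call was also lost without Sin3B-/- replicate 1 (0.55, limma adjusted p = 0.0682) and without Sin3B+/+ replicate 2 (0.38, limma adjusted p = 0.0889). The Usp2, Usp36, Usp3 and Usp25 peaks had differences from 0.59 to 0.93 as deposited. Relative to the table these were from -0.16 (Usp2) to 0.18 (Usp25).

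A list of 32 genes of these families was made with earlier results of these data known. Of these genes, 8 had a peak in the table (Fbxo11, Fbxo9, Rnf220, Ube2o, Ube2s, Usp1, Usp22 and Usp9x) and 24 had none. Among the latter were Usp7, Usp16, Trim28, Trim33, Rnf2, Rnf20, Ube2c and Fbxw7. The table lists differential peaks alone, so nothing follows about the accessibility of these genes.

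Genes with more than 1 peak allowed a comparison within each library, in which the library scale cancels. For 6 genes and 7 pairs of peaks, the log2 ratio of the level at the peak farther from any start of its gene to that at the nearer peak was taken. In Usp19 the intron to promoter ratio was -1.65 and -1.78 in Sin3B+/+ and -0.46 and -0.41 in Sin3B-/-. The intron peak thus gained 1.28 log2 units on its promoter, with means of -1.71 ± 0.09 and -0.43 ± 0.04 (SD, n = 2 each). In Ube2f the same ratio was -2.96 and -3.00 against -2.28 and -2.27, a gain of 0.71.

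For the 2878 bp peak of Rnf125 against the 655 bp peak the ratio was -2.88 and -3.42 in Sin3B+/+ and -2.53 and -2.18 in Sin3B-/-, a gain of 0.80. The 5895 bp peak went the other way against the same reference, by -0.30, from -0.05 and 0.34 to -0.14 and -0.16. Trim8 gained 0.30 and Fbxo9 0.07, and in Usp39 the ratio of the peak at the gene's end to the promoter peak fell by 0.64. In all 7 pairs the genotypes did not overlap, with 5 ratios higher in Sin3B-/- and 2 lower, and the same held for 55.4% of the 956 such pairs in the table. An exact two-sided permutation test with 2 against 2 libraries cannot give a p below 0.33, so it could call none of these differences. No other test was made on the ratios. In the 5895 bp pair of Rnf125 the genotype difference was smaller than the gap between the control replicates. Both peaks of a pair were chosen for differing between the genotypes.

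**Figure D4:**
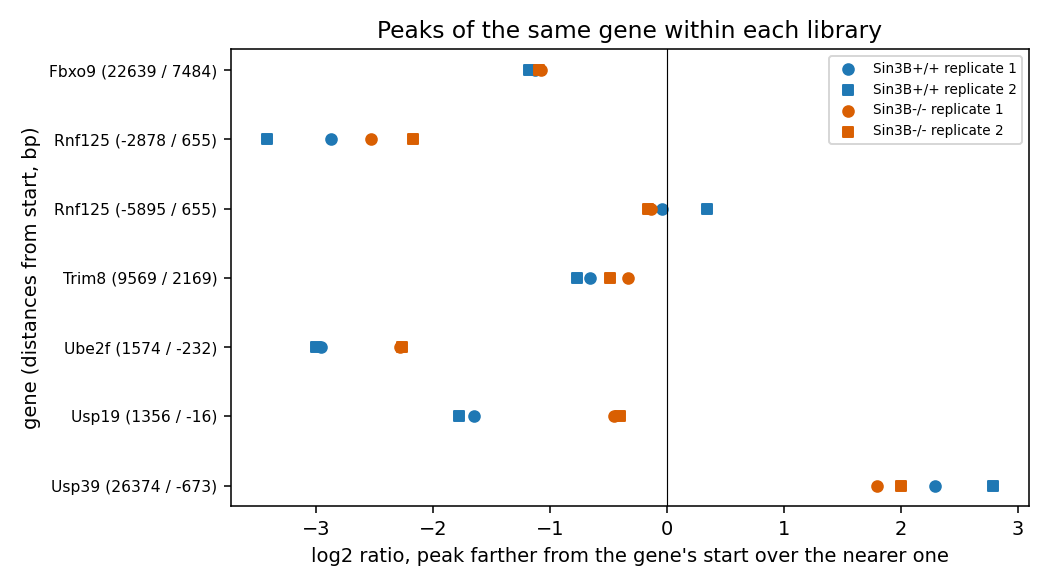
Log2 ratio of the normalized read level at the peak farther from any start of its gene to that at the nearer peak (horizontal axis) in each library, for the 7 pairs in 6 genes (vertical axis, with both distances in bp). Blue marks Sin3B+/+ and orange Sin3B-/-, circles are replicate 1 and squares replicate 2, and Usp19 shows the widest gap between genotypes, from -1.71 to -0.43 on average.

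The sequence of the members, which the rule had not used, was set beside that of the table by position. In the central 300 bp, promoter members had a median GC content of 62.2% (59.7% over promoter peaks of the table) and a median ratio of observed to expected CpG of 0.73 in both, while members outside promoters had 52.7% and 0.25 (51.7% and 0.26). Motif letters were searched on both strands, and matches of different motifs may share bases. CCGGAAG, for ETS factors, was found in 9 of 28 promoter members (32.1%) and 17.5% of the table's promoter peaks, and in 0 of 39 other members, where the table had 5.15%. These members were Fbxo8, Fbxw11, Rnf181, Rnf6, Trim39, Trim41, Ube2f, Usp19 and Usp36. GGGGCGGG, for Sp and KLF factors, was in 8 of 28 promoter members (28.6%) beside 22.7%.

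TTTGAA, the element of cell cycle genes known as CHR, was found in 15 of 67 members (22.4%) and in 13.6% of the table. Outside promoters the shares were 13 of 39 (33.3%) and 15.2%, and in promoters 2 of 28 (7.14%), in Ube2s and Trim12c, beside 10.3%. The letters for E2F factors (TTTCCCGC, TTTGGCGC or TTTCGCGC) were in 0 of 67 members and in 1.5% of the table. AGATAAG for GATA factors was in 8.96% of the members and 9.19% of the table, TGTGGTTT for RUNX factors in 5.97% and 5.29%, and TGANTCA for AP-1 in 8.96% and 10.4%. GCGCATGC for NRF1 was held by 1 member, Rnf5, with 1.69% in the table. AAGATGGCG for YY1 and TGACGTCA for CREB were each in 2.99%, beside 1.86% and 1.99%, and CACGTG, the E-box, in 5.97% beside 6.86%. Such matches are letters in a window and not binding sites, and the shares are descriptions over few peaks.

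Genes of 5 other lists of the ubiquitin system in the table were all called higher in Sin3B-/- on the deposited scale, as 95.7% of it was. They were 2 of 11 modifier genes (Nedd8 and Urm1), 6 of 31 cullin-RING core genes with 7 peaks, 16 of 73 other ligase genes with 19 peaks, 8 of 41 other deubiquitinase and deSUMOylase genes, and 10 of 45 proteasome and Vcp pathway genes with 11 peaks. No peak of these lists was called lower. Some of their intron peaks had low control levels and large differences. Cul4a, a cullin scaffold, had 26.2 and 19.5 in Sin3B+/+ against 155 and 139 in Sin3B-/- (2.64). Nploc4, a cofactor of Vcp, had 26.2 and 28.1 against 124 and 110 (2.07). As deposited, these were larger than the difference of any member, and the list medians, from 0.64 to 0.89, lay near the table's 0.76.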

How the data were processed

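ATAC-Seq was measured in 2 Sin3B+/+ and 2 Sin3B-/- LT-HSC libraries, each a pool from 2 mice, amplified for 12 PCR cycles. Genotype and replicate number came from the sample labels. The authors trimmed and aligned the reads with bowtie2, removed duplicates, called peaks with MACS2, tested the genotypes in DiffBind with DESeq2, annotated the peaks and deposited a table of peaks with an FDR under 0.05. The table used here may not hold every peak called. The deposited values per library are a signal, normalized reads per peak. The normalization method and tool versions are not given in the sources used here. The authors' mean level, fold, p-value and FDR columns were not used. Dividing a library's values by its smallest spacing gave whole reads for 100% of peaks (tolerance 0.01), which served only to describe reads.

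The labels name build mm9. However, 5330 of 5332 gene identifiers were found in GENCODE M21 (GRCm38), 96.6% of these with the same start and end, and 40.8% of peaks were centred within 1000 bp of one of its transcript starts, so GRCm38 and its basic transcripts were used.

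limma 3.58.1 (R 4.3.3) was fitted on log2(level + 1) over all 4 libraries and 5332 peaks, two-sided, with Benjamini-Hochberg adjustment and a threshold of 0.05. The pseudocount understates the change of low peaks. Each library's floor of 3 reads was 0.684, 1.03, 1.87 and 3 level units, below every member value. The steps were tested on simulated data, which for limma held no common shift and no selection by FDR, unlike the table. With 2 libraries a genotype, p-values rest on few pools, and intervals cover counting error only. Motif letters were searched in the central 300 bp, and the printed sequences came from the RefSeq copy of GRCm38. RefSeq promoters matched 45 of 60 genes and were not printed. Other software was Python 3.11.15, pandas 2.3.3, scipy 1.17.1, pysam 0.24.0, Biopython 1.88, samtools 1.23.1 and matplotlib 3.10.9.

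Peaks were named, 38 in 31 genes, when among the 3 largest rises of a family, lower in Sin3B-/-, in a gene with several peaks, or in a list of 32 genes. Of the other ubiquitin lists, a few peaks with large differences were named, and some results are not reported here. The members and lists were chosen with earlier results of these data known. The alternatives were another pseudocount, centred libraries, a level filter, a replicate block, leaving out each library, other promoter windows and transcripts, and members by nearest start. Added after the data were seen were a limma variance trend, the crossed pairing and only members nearest to their own start. The other files of the study were not analysed here.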

Additional observations from a re-analysis of the deposited data

How the results depend on the processing

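The count of 66 member peaks called higher in Sin3B-/- was 66 with a pseudocount of 8, 65 with the replicate number as a block, 62 of the 62 peaks left with a mean level of at least 50, 7 with centred libraries, and 40 to 66 when each library was left out in turn, the lowest without Sin3B-/- replicate 2 and the next, 54, without Sin3B+/+ replicate 2. The table fell alike, to 58.5% and 82.2% called higher beside 59.7% and 80.6% of the members. In these the lone library of a genotype is assumed to vary like the pair of the other. The count called lower was 1 throughout, except 0 with the level filter, which removed Fbxl7. The median log2 difference of 0.79 was 0.0404 with centred libraries and 0.65 to 0.90 with 1 library left out. The promoter share of 41.8% was 62.7% with a window of 2000 bp on either side of a start, and 43.3%, 46.3% and 46.2% with 500 bp, with all annotated transcripts and with members taken by nearest start, where the table's share was 47.1% at 2000 bp, 35.7% at 500 bp and 38.9% with all transcripts. The last gave 65 peaks, of which 54 were also members by name, and 64 of them were called higher.

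Of 377 values of named peaks under these settings, 325 kept direction and call, 39 kept only their direction and 13 changed sign, all with centred libraries: Fbxl19 (-0.29), Fbxo11 (-0.18), Fbxo9 (-0.0403 and -0.11), Fbxw2 (-0.0240), Trim8 (-0.20), Ube2f (-0.14), Ube2s (-0.23), Usp1 (-0.15), Usp19 (-0.0901), Usp22 (-0.0467), Usp39 (-0.11) and Usp9x (-0.17). Centring subtracts the rise common to the table. Same-numbered libraries came from different mice and their deviations correlated at -0.101. The replicate block ended 1 call, Fbxl19, and with the pairing crossed 66 members were called higher. Depth limits the weakest peaks most, with 13 reads in Fbxl7.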
